A study of Arabidopsis thaliana with 12 samples.

Results

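The clade A type 2C protein phosphatases (PP2Cs) of Arabidopsis thaliana are the 9 genes ABI1, ABI2, HAB1, HAB2, HAI1, HAI2, HAI3, AHG1 and PP2CA. They were taken by gene code with no filter on their values, though earlier results of these data were known when they were chosen. All 9 were found among the 33557 genes of the deposited tables. RNA came from root tips of about 1 cm, cut from seedlings that had grown for 8 days at 22 °C under 16 h of light and 8 h of dark and had then spent 24 h on Murashige and Skoog medium (MS) of 1/2 strength, with or without NaCl. The 12 samples make 4 groups of 3, which are the line 6-6 on NaCl, the line 6-6 on MS, wild type (WT) on NaCl and WT on MS. The sources used here give neither the NaCl concentration nor what kind of line 6-6 is. They also do not say that the 3 samples of a group were grown separately, and the authors' p-values may then cover technical spread alone. The title of the series concerns ITPK4, an inositol phosphate kinase gene, which was at 2.75 FPKM in 6-6 against 27.7 FPKM in WT on NaCl (log2 ratio -3.33, q = 0.00186 in the authors' deposited table) and at 2.95 FPKM in 6-6 against 24.9 FPKM in WT on MS (log2 ratio -3.08, q = 0.00396 in the authors' deposited table).

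FPKM is the number of fragments of a gene, scaled for transcript length and for library size. The authors' tables hold 1 FPKM value per group, made from its 3 samples together, so no value below has an error between samples, and the order of nearby levels cannot be set against any spread. The depth of the libraries is unknown. A gene is said to have risen or fallen, or to be higher or lower, only where the authors' q-value was below 0.05 in the deposited table of that pair of groups. The smallest p-value in the authors' deposited tables is 5e-05, and genes at that value share the lowest q-value of their pair. The lowest q-value was 0.00186 for 6-6 against WT on NaCl and 0.00396 on MS. For NaCl against MS it was 0.000441 in 6-6 and 0.000482 in WT. Such q-values do not rank genes by strength of evidence. In whole root tips, fewer cells of a type and less RNA per cell cannot be told apart. All 25 marker genes of root cell types and green tissue were above 0 in every group, among them the root meristem gene PLT1, at 4.73 FPKM in 6-6 on NaCl, 5.70 FPKM in 6-6 on MS, 4.43 FPKM in WT on NaCl and 5.91 FPKM in WT on MS.

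Abscisic acid (ABA) is the plant hormone of water shortage and salt stress. Without it, clade A PP2Cs bind SnRK2 protein kinases, remove their activating phosphate and keep the pathway off. ABA is bound by receptors of the PYR/PYL family, and the receptor with its hormone then occupies the active site of the phosphatase, which frees the SnRK2 kinases to phosphorylate ABF transcription factors and ion channels. Transcripts of several of the phosphatase genes are known to accumulate under ABA, a negative feedback on the pathway.

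ABI1 led the clade in every group. This gene (AT4G26080, chromosome 4, 13219961 to 13222284, reverse strand, TAIR10) was named for dominant mutants that are insensitive to ABA, and it had 45.2 FPKM in 6-6 on NaCl, 48.5 FPKM in 6-6 on MS, 55.3 FPKM in WT on NaCl and 51.1 FPKM in WT on MS. It held 36.3% of the summed FPKM of the clade in 6-6 on NaCl, 38.7% in 6-6 on MS, 36.0% in WT on NaCl and 38.4% in WT on MS. ABI1 thus lay above 81.0% to 83.4% of the tested genes in the 4 groups. PP2CA (AT3G11410, listed in the files as ATPP2CA, chromosome 3, 3583883 to 3585790, reverse strand), also known as AHG3 and as a regulator of potassium channels, came next, with 26.2 FPKM in 6-6 on NaCl, 28.6 FPKM in 6-6 on MS, 32.0 FPKM in WT on NaCl and 33.2 FPKM in WT on MS.

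HAB1 and HAB2 are named for their homology to ABI1 and are negative regulators of the ABA response. HAB2 (AT1G17550, chromosome 1, 6034362 to 6037289, forward strand) had 19.9 FPKM in 6-6 on NaCl, 21.0 FPKM in 6-6 on MS, 23.2 FPKM in WT on NaCl and 22.0 FPKM in WT on MS. HAB1 (AT1G72770, chromosome 1, 27390022 to 27393281, forward strand) had 17.0 FPKM in 6-6 on NaCl, 17.8 FPKM in 6-6 on MS, 19.2 FPKM in WT on NaCl and 17.3 FPKM in WT on MS. The order ABI1, PP2CA, HAB2, HAB1 was the same in the 4 groups, although the steps between HAB2 and HAB1 were small. These 4 genes also had the narrowest ranges, between 0.18 and 0.34 on the log2 scale over the 4 groups, whereas ABI2 covered 0.71 and HAI1 covered 2.11.

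ABI2 and HAI1 changed places between the media. ABI2 (AT5G57050, chromosome 5, 23087235 to 23089627, forward strand), the close relative of ABI1, had 6.68 FPKM in 6-6 on NaCl, 5.36 FPKM in 6-6 on MS, 8.68 FPKM in WT on NaCl and 5.30 FPKM in WT on MS. HAI1 (AT5G59220, chromosome 5, 23894404 to 23896619, reverse strand), of the highly ABA-induced group and also known as SAG113, had 8.75 FPKM in 6-6 on NaCl, 3.20 FPKM in 6-6 on MS, 13.1 FPKM in WT on NaCl and 3.05 FPKM in WT on MS. HAI1 was thus above ABI2 on NaCl and below it on MS, in both lines.

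The other 3 genes stayed below 2 FPKM, among them HAI2 and HAI3, the remaining genes of the highly ABA-induced group. HAI3 (AT2G29380, chromosome 2, 12608702 to 12610167, forward strand) had 0.399 FPKM in 6-6 on NaCl, 0.269 FPKM in 6-6 on MS, 1.52 FPKM in WT on NaCl and 0.743 FPKM in WT on MS. AHG1 (AT5G51760, chromosome 5, 21026916 to 21029188, forward strand), known from mutants with ABA-hypersensitive germination and for acting in seeds, had 0.221 FPKM in 6-6 on NaCl, 0.702 FPKM in 6-6 on MS, 0.217 FPKM in WT on NaCl and 0.623 FPKM in WT on MS. HAI3 was thus highest in WT on NaCl, and AHG1 was higher on MS than on NaCl in both lines. HAI2 (AT1G07430, chromosome 1, 2280835 to 2282828, reverse strand) was close to 0 throughout, at 0.123 FPKM in 6-6 on NaCl, 0.00243 FPKM in 6-6 on MS and 0.0889 FPKM in WT on NaCl, and was listed at 0 in WT on MS.

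**Figure D1:**
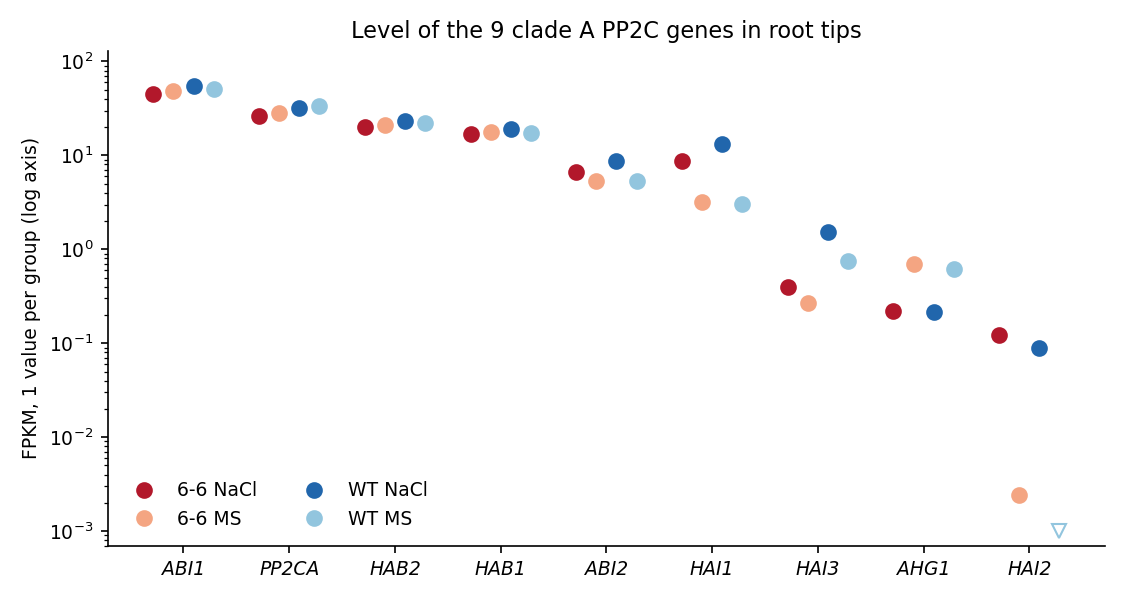
Level of each of the 9 clade A PP2C genes in the 4 groups, in FPKM on a log axis; each point is the authors' value for a group of 3 samples, with no error available, and the open triangle marks HAI2, listed at 0 in WT on MS. ABI1, PP2CA, HAB2 and HAB1 lie close together over the 4 groups, while HAI1 is spread from 3.05 to 13.1 FPKM.

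Not every gene was tested by the authors in every pair. HAI2 was tested in none, AHG1 in the pairs that hold an MS group, and HAI3 in the pairs that hold a WT group, while the other 6 genes were tested in all 4 pairs. AHG1 and HAI3 therefore entered a test only with a group in which they were high, and counts that include them describe the tested members only. The files give no member a locus shared with another gene. The longest identical stretch between transcripts of members was 33 bases, in HAB1 and HAB2, and 26 bases in ABI1 and ABI2, and no pair shared 50 bases.

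The sequence before the gene start was searched for the core of the ABA-responsive element, ACGTG, which bZIP factors of the ABF group bind. Within 300 bases before the RefSeq start (TAIR10.1, both strands), 7 of the 9 genes held at least 1 core, against 25.6% of 27443 nuclear protein-coding genes. The longer forms ACGTGGC or ACGTGTC, which contain the core, occurred before 4 of 9 members and before 7.01% of all genes. HAI2 had 5 core matches, PP2CA 4, HAB2 and HAI3 2 each, and ABI1, HAB1 and AHG1 1 each, while no core was in this window for ABI2 and HAI1. With 1000 bases the core was found before 8 of 9 members and 54.4% of all genes. The dehydration-responsive element, ACCGAC or GCCGAC, was found within 300 bases before AHG1 alone among the members and before 8.24% of all genes. A match is a description of letters and not a binding site.

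Printed here are the 300 bases before the start of HAI3 and AHG1, low genes that differed between media in WT, and of PP2CA, an abundant gene with 4 cores that passed no test. Capitals mark the core on either strand (ACGTG, or CACGT where it is read on the opposite strand) and, near the end of the AHG1 stretch, ACCGAC. The HAI3 stretch is chr2:12608375-12608674 on the forward strand, the PP2CA stretch is chr3:3585851-3586150 on the reverse strand and the AHG1 stretch is chr5:21026505-21026804 on the forward strand, all in TAIR10.1 and free of annotated exons.
HAI3: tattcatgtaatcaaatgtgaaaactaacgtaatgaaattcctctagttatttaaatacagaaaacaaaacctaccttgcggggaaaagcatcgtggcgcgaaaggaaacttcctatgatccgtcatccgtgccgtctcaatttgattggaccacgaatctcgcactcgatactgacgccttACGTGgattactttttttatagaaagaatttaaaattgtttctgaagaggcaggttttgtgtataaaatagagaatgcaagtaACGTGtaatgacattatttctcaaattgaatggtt
PP2CA: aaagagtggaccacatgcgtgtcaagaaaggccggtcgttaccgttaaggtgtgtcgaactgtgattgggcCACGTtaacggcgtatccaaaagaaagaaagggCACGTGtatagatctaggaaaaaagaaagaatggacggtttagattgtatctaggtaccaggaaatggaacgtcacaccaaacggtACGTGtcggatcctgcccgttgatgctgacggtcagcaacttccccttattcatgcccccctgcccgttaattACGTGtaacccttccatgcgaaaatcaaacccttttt
AHG1: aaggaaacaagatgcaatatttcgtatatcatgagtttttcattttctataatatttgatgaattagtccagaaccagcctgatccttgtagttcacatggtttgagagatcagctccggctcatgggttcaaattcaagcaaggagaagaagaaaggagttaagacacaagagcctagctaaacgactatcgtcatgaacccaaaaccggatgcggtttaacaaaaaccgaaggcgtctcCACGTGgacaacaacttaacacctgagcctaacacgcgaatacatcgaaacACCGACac

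HAI1 had the widest range among the members with a mean of at least 1 FPKM. Its start lies at different bases in RefSeq and in the deposited tables. Counted from the start in the tables, its cores lie at -242 and -199, inside the longest RefSeq transcript of the gene. The matches with 8 bases on either side are at chr5:23896849-23896869 and chr5:23896805-23896826, on the reverse strand of TAIR10.1, with the core in capitals.
HAI1 at -242: gattggtgCACGTaagtgttt
HAI1 at -199: acgttttaCACGTGgacacaat

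The first question of the design is what NaCl did within each line. HAI1 rose on NaCl in both. In 6-6 it had 8.75 FPKM on NaCl against 3.20 FPKM on MS, a 2.73-fold rise (log2 ratio 1.45, q = 0.000441 in the authors' deposited table). In WT it had 13.1 FPKM on NaCl against 3.05 FPKM on MS, a 4.31-fold rise (log2 ratio 2.11, q = 0.000482 in the authors' deposited table). These ratios lay above those of 97.1% of the tested genes in 6-6 and 98.8% in WT.

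Of the other members, AHG1 fell on NaCl in both lines, while ABI2 and HAI3 passed the test in WT only and were not shown to respond differently in 6-6. AHG1 fell to 0.221 FPKM in 6-6 on NaCl, against 0.702 FPKM in 6-6 on MS (log2 ratio -1.67, q = 0.0106 in the authors' deposited table). In WT it fell to 0.217 FPKM on NaCl, against 0.623 FPKM on MS (log2 ratio -1.52, q = 0.0211 in the authors' deposited table). Both calls rest on levels below 1 FPKM.

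ABI2 had 6.68 FPKM on NaCl and 5.36 FPKM on MS in 6-6, which did not pass (log2 ratio 0.32, q = 0.0898 in the authors' deposited table). In WT, ABI2 rose to 8.68 FPKM on NaCl, against 5.30 FPKM on MS, a 1.64-fold change (log2 ratio 0.71, q = 0.000482 in the authors' deposited table). HAI3 was not tested in 6-6, with a log2 ratio of 0.57. In WT it rose 2.04-fold, to 1.52 FPKM on NaCl against 0.743 FPKM on MS (log2 ratio 1.03, q = 0.00779 in the authors' deposited table).

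ABI1, HAB1, HAB2 and PP2CA, the abundant genes, passed no test between media. Their log2 ratios of NaCl over MS lay between -0.13 and -0.06 in 6-6 and between -0.05 and 0.15 in WT. In 6-6, 2 of 7 tested members passed, 1 up and 1 down, where 24.1% of all tested genes did (13.7% up and 10.4% down). In WT, 4 of 8 tested members passed, 3 up and 1 down, where 21.8% of all tested genes did (11.3% up and 10.5% down). These counts include AHG1 in both lines and HAI3 in WT, which entered a test only with a group in which they were high. Among the members tested in every pair, HAI1 alone passed in 6-6, and HAI1 and ABI2 passed in WT. At an unadjusted p below 0.05 in the authors' deposited table there were 3 of 7 members in 6-6, where 32.9% of all tested genes were, and 4 of 8 in WT, where 31.5% were. The median log2 ratio over the tested members was -0.08 in 6-6 and 0.13 in WT, while over all tested genes it was 0.03 in 6-6 and 0.01 in WT.

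The summed FPKM of the HAI genes was 9.27 on NaCl against 3.48 on MS in 6-6, a ratio of 2.67, and 14.7 on NaCl against 3.79 on MS in WT, a ratio of 3.89. Most of each sum was HAI1, with 8.75 FPKM on NaCl and 3.20 FPKM on MS in 6-6. In WT, HAI1 had 13.1 FPKM on NaCl and 3.05 FPKM on MS. The sum over ABI1, ABI2, HAB1 and HAB2 had a ratio of NaCl over MS of 0.958 in 6-6 and 1.11 in WT. ABI1, PP2CA, HAB2 and HAB1, which passed no test between media, made up most of the clade's summed FPKM in each group. Over all 9 members the sum was 124 FPKM on NaCl and 125 FPKM on MS in 6-6, and 153 FPKM on NaCl and 133 FPKM on MS in WT. HAI1 made up 7.03% of that sum on NaCl and 2.56% on MS in 6-6, and 8.55% on NaCl and 2.29% on MS in WT.

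**Figure D2:**
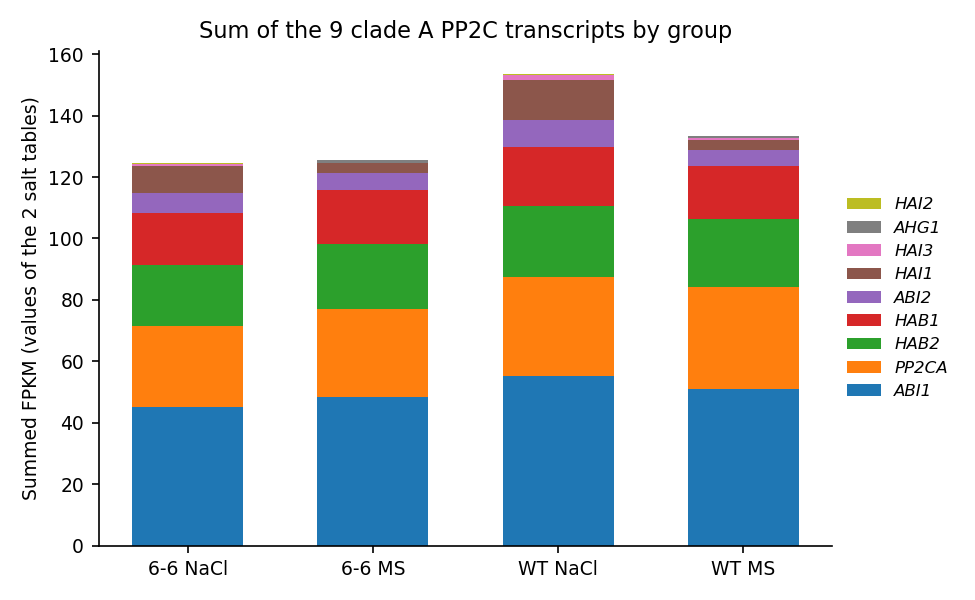
Summed FPKM of the 9 clade A PP2C genes in each of the 4 groups, as stacked bars from 0 with 1 segment per gene and no error available. The sums are 124 FPKM in 6-6 on NaCl, 125 FPKM in 6-6 on MS, 153 FPKM in WT on NaCl and 133 FPKM in WT on MS; ABI1 is the largest segment in each bar.

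Test choice bears on the calls of the low genes. When the authors' test statistic, a signed score, was read as a normal deviate and adjusted over all genes, HAI1 kept its salt call in 6-6 (adjusted p = 5.86e-06) and in WT (adjusted p = 1.12e-13), and ABI2 kept it in WT (adjusted p = 0.0273). HAI3 in WT then had an adjusted p of 0.203, and AHG1 had 0.145 in 6-6 and 0.247 in WT. That left 1 of 7 members in 6-6, where 10.1% of all genes with a statistic passed, and 2 of 8 in WT, where 8.45% did. AHG1 also missed a q-value of 0.01 in both lines, which 17.3% of tested genes passed in 6-6 and 15.3% in WT. Its mean lay under a minimum of 1 FPKM in both lines, above which 24.1% of genes passed in 6-6 and 22.1% in WT. With log2(FPKM + 1), the ratio of NaCl over MS for AHG1 was -0.48 in 6-6 and -0.41 in WT, and that for HAI3 in WT was 0.53.

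Cell type markers also differed between the media. All 4 tested green tissue genes were higher on NaCl in each line, with sums of 99.5 FPKM on NaCl and 32.4 FPKM on MS in 6-6, and of 172 FPKM on NaCl and 50.7 FPKM on MS in WT. The 6 Casparian strip genes of the endodermis summed to 439 FPKM on NaCl and 624 FPKM on MS in 6-6, where 4 were lower, and to 556 FPKM on NaCl and 660 FPKM on MS in WT, where 3 were lower and 2 higher. The green tissue list thus rose on NaCl, and most Casparian strip genes that passed were lower. Genes of the root hair and epidermis list summed to 234 FPKM on NaCl and 181 FPKM on MS in 6-6, and to 236 FPKM on NaCl and 198 FPKM on MS in WT, with 1 of 4, EXPA7, higher in each line. In WT, EXPA7 had 158 FPKM on NaCl against 110 FPKM on MS. SHV2 (44.6 against 50.3 FPKM) and MYB66 (25.9 against 30.6 FPKM) had less on NaCl in WT, and GL2 (7.47 against 7.02 FPKM) had more, but these did not pass. Meristem genes summed to 61.2 FPKM on NaCl and 62.5 FPKM on MS in 6-6, with 1 of 5 higher, and to 57.3 FPKM on NaCl and 63.2 FPKM on MS in WT, with 1 higher and 1 lower. Root cap genes summed to 7.44 FPKM on NaCl and 11.0 FPKM on MS in 6-6, where both of 2 were lower, and to 9.79 FPKM on NaCl and 12.4 FPKM on MS in WT, where 1 of 2 was lower. Root cap genes that passed the authors' test were thus lower on NaCl in both lines. Vascular genes summed to 129 FPKM on NaCl and 131 FPKM on MS in 6-6 and to 154 FPKM on NaCl and 151 FPKM on MS in WT, and none of 4 passed in either line. By the statistic read as a normal deviate, the green tissue list kept 4 of 4 in each line and the endodermis list 2 of 6 in 6-6 and 1 of 6 in WT. The root hair and epidermis list and the meristem list kept 1 gene each in 6-6 and none in WT, and the root cap list kept none in either line. Genes of the organelle genomes had a median log2 ratio of NaCl over MS of -1.67 in 6-6 and of -0.02 in WT. The part of these cell types and of the organelle genes in the values of the phosphatase genes was not tested.

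The second question is how 6-6 differed from WT on each medium. On NaCl, HAI1 and HAI3 were lower in 6-6. HAI1 had 8.95 FPKM in 6-6 and 13.3 FPKM in WT, 1.48-fold lower in 6-6 (log2 ratio -0.57, q = 0.00186 in the authors' deposited table). HAI3 had 0.408 FPKM in 6-6 and 1.54 FPKM in WT, 3.77-fold lower (log2 ratio -1.91, q = 0.00186 in the authors' deposited table), and 0.152% of all tested genes had a lower ratio. At these low levels the size depends on the pseudocount, and with log2(FPKM + 1) the ratio of HAI3 was -0.85. The share of tested genes with a ratio below that of HAI1 was 2.84%.

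The other tested members did not pass on NaCl, though each had less FPKM in 6-6. At an unadjusted p below 0.05 in the authors' deposited table there were 6 of 7 members, HAI1 and HAI3 among them, where 18.5% of all tested genes were. The authors' statistic was -2.74 for HAI1 and -3.59 for HAI3. It was smaller in size for ABI2 (-1.70), ABI1 (-1.58), PP2CA (-1.50) and HAB2 (-1.16). The deposited p-values are not those of a normal deviate of this size. For ABI1, at -1.58, the authors' deposited table gives p = 0.0061, and which of the 2 is the better measure was not tested. HAI3 entered the test of this pair only with WT, in which it was high. ABI2 was nearest, with 6.82 FPKM in 6-6 and 8.79 FPKM in WT (log2 ratio -0.37, q = 0.0554 in the authors' deposited table). ABI1 had 46.2 FPKM in 6-6 and 56.0 FPKM in WT (log2 ratio -0.28, q = 0.0740 in the authors' deposited table). PP2CA had 26.8 FPKM in 6-6 and 32.4 FPKM in WT (log2 ratio -0.28, q = 0.0971 in the authors' deposited table).

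HAB1 had 17.4 FPKM in 6-6 and 19.5 FPKM in WT (log2 ratio -0.16), and HAB2 had 20.3 FPKM in 6-6 and 23.5 FPKM in WT (log2 ratio -0.21). Thus 2 of 7 tested members passed, both lower in 6-6, where 6.71% of all tested genes passed and 3.67% were lower. HAI3, counted here, was tested only through its level in WT, and HAI1 alone passed among the members tested in every pair. All 7 log2 ratios were below 0, as were 62.1% of those of all tested genes, and the median was -0.28 over the members and -0.05 over all tested genes. The summed FPKM of the clade was 0.819 of the WT sum. That of the HAI genes, most of it from HAI1, was 0.636 of the WT sum of those genes. AHG1 (0.226 FPKM in 6-6 and 0.220 FPKM in WT) and HAI2 (0.126 FPKM in 6-6 and 0.0900 FPKM in WT) were not tested.

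By the statistic read as a normal deviate, HAI3 kept its call on NaCl (adjusted p = 0.0344) and HAI1 did not (adjusted p = 0.286), so that 1 of 7 members passed, where 1.04% of all genes with a statistic did. That member, HAI3, was tested only through its level in WT, and no member tested in every pair passed by this reading. A minimum mean of 1 FPKM left HAI1 and removed HAI3, with 6.84% of genes passing. Among markers on NaCl, green tissue genes summed to 102 FPKM in 6-6 and 174 FPKM in WT, with 1 of 4 lower in 6-6, and endodermis genes to 449 FPKM in 6-6 and 563 FPKM in WT, with 2 of 6 lower. Root cap genes summed to 7.61 FPKM in 6-6 and 9.92 FPKM in WT, with 1 of 2 lower, and meristem genes to 62.5 FPKM in 6-6 and 58.0 FPKM in WT, with 1 of 5 higher. Vascular genes summed to 132 FPKM in 6-6 and 156 FPKM in WT, and root hair and epidermis genes to 239 FPKM in each line, and no gene of either list passed. By the statistic the endodermis list kept 2 genes and green tissue 1, and the root cap and meristem lists kept none. Their part in the lower values of HAI1 and HAI3 was not tested.

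On MS, none of 8 tested members passed between the lines, where 3.02% of all tested genes did. At an unadjusted p below 0.05 in the authors' deposited table there was 1 of 8 members, HAI3, where 13.8% of all tested genes were, and by the statistic there was none, where 0.596% of all genes with a statistic passed. HAI3 had 0.266 FPKM in 6-6 and 0.728 FPKM in WT (log2 ratio -1.45, p = 0.00375 and q = 0.0901 in the authors' deposited table), and with log2(FPKM + 1) the ratio was -0.45. HAI1, at 3.17 FPKM in 6-6 and 2.98 FPKM in WT, had a log2 ratio of 0.09. The remaining ratios lay between -0.20 for PP2CA and 0.19 for AHG1, and the median over the members was -0.01, beside -0.07 over all tested genes. The share of all tested genes with a ratio below 0 was 67.2%, and 4 of 8 members had one. Genes of the organelle genomes had a median log2 ratio of 1.33 between 6-6 and WT on MS and of -0.25 on NaCl. Green tissue markers summed to 32.0 FPKM in 6-6 and 49.6 FPKM in WT on MS, with 2 of 3 tested lower in 6-6 (1 by the statistic), and no other marker list had a gene that passed on MS. Their part in the values of the members was not tested.

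**Figure D3:**
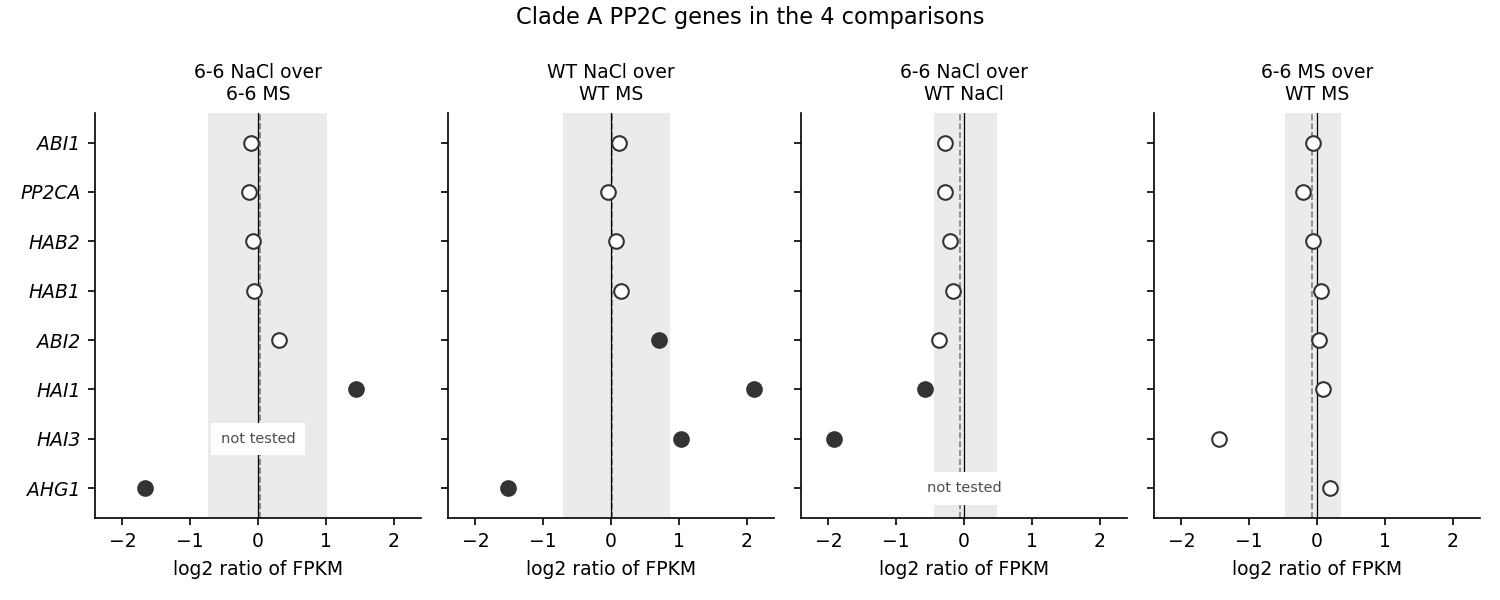
Log2 ratio of the FPKM values of each tested clade A PP2C gene in the 4 pairs of groups; filled points passed the authors' q-value of 0.05, open points did not, the grey band spans percentiles 5 to 95 of all tested genes and the dashed line is their median. HAI1 lies at 1.45 in 6-6 and at 2.11 in WT for NaCl over MS, and HAI3 at -1.91 for 6-6 over WT on NaCl; HAI2, never tested, is not drawn.

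The difference between the lines in the response to NaCl could not be tested, because the tables hold no value per sample. The log2 ratio of NaCl over MS in 6-6 minus that in WT was taken for each member with a ratio in both lines. HAI2, listed at 0 in WT on MS, had none, and with log2(FPKM + 1) its difference was 0.04. The difference was -0.66 for HAI1, -0.46 for HAI3, -0.40 for ABI2, -0.22 for ABI1 and for HAB1, -0.16 for HAB2, -0.15 for AHG1 and -0.08 for PP2CA. Over 19479 genes tested in both lines its median was 0.02. Of those genes, 2.43% had a lower difference than HAI1, 5.65% a lower one than ABI2 and 13.7% a lower one than ABI1 or HAB1. For HAB2 the share was 19.9%, for AHG1 20.5% and for PP2CA 32.1%. HAI3 was not tested in 6-6, where it had 0.399 FPKM on NaCl and 0.269 FPKM on MS. The share of all genes with a negative difference was not computed. The median log2 ratio of organelle genes also differed between the lines, at -1.67 for NaCl over MS in 6-6 and -0.02 in WT, and its part in these differences was not tested. The 8 values share the same 4 groups and so are not separate observations.

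Genes whose levels followed a pattern close to that of HAI1 were picked by the root mean square distance between centred log2 FPKM over the 4 groups, among 18110 genes. The nearest was MYB112, a MYB transcription factor gene, at a distance of 0.0775, with 3.73 FPKM in 6-6 on NaCl, 1.35 FPKM in 6-6 on MS, 5.72 FPKM in WT on NaCl and 1.47 FPKM in WT on MS. Next were AT5G43450, which encodes an oxygenase, at 0.0829, CYP707A3, an ABA 8'-hydroxylase that breaks the hormone down, at 0.0927, GAPA, a subunit of the chloroplast glyceraldehyde 3-phosphate dehydrogenase, at 0.105, and NAS4, a nicotianamine synthase, at 0.120. CYP707A3 had 20.9 FPKM in 6-6 on NaCl, 6.61 FPKM in 6-6 on MS, 26.9 FPKM in WT on NaCl and 6.26 FPKM in WT on MS. GAPA is also one of the 4 green tissue markers. With 4 group values per gene, such likeness is a description only.

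Many of the receptors that inhibit the phosphatases fell on NaCl. Of 11 tested PYR/PYL genes, 6 fell and 1 rose in 6-6 and 7 fell and 1 rose in WT, with median log2 ratios of -0.41 in 6-6 and -0.45 in WT. For this list and those below, the comparison is with all tested genes. Of these, 13.7% rose and 10.4% fell on NaCl in 6-6, and 11.3% rose and 10.5% fell in WT. Between the lines, 6.71% passed on NaCl and 3.02% on MS. An unadjusted p below 0.05 in the authors' deposited table was reached by 18.5% between the lines on NaCl and 13.8% on MS. For NaCl against MS in WT it was 31.5%. PYL6 had the strongest fall, to 6.88 FPKM on NaCl against 44.4 FPKM on MS in 6-6 (log2 ratio -2.69, q = 0.000441 in the authors' deposited table) and to 4.84 FPKM on NaCl against 38.8 FPKM on MS in WT (log2 ratio -3.00, q = 0.000482 in the authors' deposited table). PYR1, the most abundant of the receptors named here, fell to 215 FPKM on NaCl against 289 FPKM on MS in 6-6 and to 217 FPKM on NaCl against 305 FPKM on MS in WT. PYL4 fell to 83.9 FPKM on NaCl against 113.1 FPKM on MS in 6-6 and to 72.9 FPKM on NaCl against 107 FPKM on MS in WT. The 14 receptor genes summed to 457 FPKM on NaCl and 611 FPKM on MS in 6-6, and to 466 FPKM on NaCl and 642 FPKM on MS in WT. Between the lines, PYL6 was higher in 6-6 on NaCl, at 7.03 FPKM against 4.90 FPKM in WT (log2 ratio 0.52, q = 0.0313 in the authors' deposited table), and none of 11 passed on MS, where 3 had an unadjusted p below 0.05.

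The SnRK2 kinases include targets of the phosphatases, though the list is not limited to them. It had 2 of 10 genes up on NaCl in 6-6 and 3 of 10 in WT, with none down. Of all tested genes, 13.7% rose in 6-6 and 11.3% in WT. SNRK2.9 rose to 5.43 FPKM on NaCl against 1.30 FPKM on MS in 6-6 (log2 ratio 2.06, q = 0.000441 in the authors' deposited table) and to 4.74 FPKM on NaCl against 1.69 FPKM on MS in WT (log2 ratio 1.48, q = 0.000482 in the authors' deposited table). OST1, the SnRK2 kinase of guard cells, rose to 14.5 FPKM on NaCl against 9.98 FPKM on MS in 6-6 and to 14.3 FPKM on NaCl against 9.96 FPKM on MS in WT. SNRK2.7 was lower in 6-6 than in WT on NaCl, at 30.6 FPKM against 40.9 FPKM in WT (log2 ratio -0.42, q = 0.00186 in the authors' deposited table), and it was the only 1 of 10 kinases to pass there. On MS none of 10 passed between the lines, with 1 at an unadjusted p below 0.05.

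Among the ABA transcription factors, ABF3 fell to 46.6 FPKM on NaCl against 67.4 FPKM on MS in 6-6 and to 49.5 FPKM on NaCl against 68.2 FPKM on MS in WT. Of 6 tested factor genes, 2 rose and 2 fell in 6-6 and none rose and 2 fell in WT. None of the 6 passed between the lines on NaCl or on MS, and 1 had an unadjusted p below 0.05 on NaCl.

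Genes of ABA synthesis and breakdown moved both ways on NaCl, with 5 of 11 tested up and 2 down in 6-6 and 3 of 10 up and 1 down in WT. CYP707A3 rose in both lines at the levels given above, with log2 ratios of 1.66 in 6-6 and 2.10 in WT. NCED2, a dioxygenase of ABA synthesis, fell to 0.530 FPKM on NaCl against 2.82 FPKM on MS in 6-6 and to 0.222 FPKM on NaCl against 2.37 FPKM on MS in WT. Lower in 6-6 than in WT on NaCl were NCED3, at 3.13 FPKM against 5.14 FPKM in WT (log2 ratio -0.71, q = 0.00186 in the authors' deposited table), NCED9, at 1.46 FPKM against 2.37 FPKM in WT, and CYP707A3, at 21.3 FPKM against 27.3 FPKM in WT. These 3 of 10 tested genes passed there, and none of 10 passed on MS, where none had an unadjusted p below 0.05.

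ABA response genes, which lie downstream of the phosphatases, had 4 of 16 tested genes up and 2 down on NaCl in 6-6, and 7 up and none down in WT. KIN1, a cold- and ABA-induced gene so like its neighbour KIN2 that reads may be shared between them, rose to 1830 FPKM on NaCl against 221 FPKM on MS in 6-6 and to 927 FPKM on NaCl against 85.5 FPKM on MS in WT. RAB18, a dehydrin gene, fell to 0.771 FPKM on NaCl against 1.69 FPKM on MS in 6-6 and rose to 2.08 FPKM on NaCl against 0.415 FPKM on MS in WT, and the difference between the lines was not tested. Between the lines on NaCl, 3 of 16 were higher in 6-6 and 3 lower. KIN1 was higher, at 1871 FPKM in 6-6 and 939 FPKM in WT (log2 ratio 0.99, q = 0.00186 in the authors' deposited table), while RAB18 was lower, at 0.788 FPKM in 6-6 and 2.10 FPKM in WT (log2 ratio -1.42, q = 0.00186 in the authors' deposited table). On MS, 4 of 16 were higher in 6-6 and none lower, with RAB18 at 1.67 FPKM in 6-6 and 0.406 FPKM in WT (log2 ratio 2.04, q = 0.00721 in the authors' deposited table).

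Of 7 tested genes for proteins that regulate the phosphatases, PUB12, a ubiquitin ligase that targets ABI1, rose on NaCl in 6-6 to 2.66 FPKM, against 1.70 FPKM on MS (log2 ratio 0.64, q = 0.00188 in the authors' deposited table), and none passed in WT, where 2 had an unadjusted p below 0.05. The difference between the lines was not tested. Among 7 tested partners and substrates, HB6, a homeodomain factor that binds ABI1, rose on NaCl to 66.8 FPKM against 41.2 FPKM on MS in 6-6 and to 67.5 FPKM against 47.6 FPKM on MS in WT. No gene of these lists passed between the lines, and at an unadjusted p below 0.05 there was 1 regulator on NaCl and 1 on MS.

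The calls between media in these lists differed by the statistic read as a normal deviate, by which 10.1% of all genes with a statistic passed in 6-6 and 8.45% in WT. The receptors then had 1 of 11 in 6-6 and 3 of 11 in WT, the kinases 1 of 10 in each line, and the transcription factors 1 of 6 in 6-6 and none in WT. Synthesis and breakdown had 4 of 11 in 6-6 and 4 of 10 in WT, and the response genes 7 of 16 in 6-6 and 6 of 16 in WT. HB6 passed in both lines and PUB12 in neither. Between the lines, response genes alone passed, 4 of 16 on NaCl and 2 of 16 on MS, where 1.04% and 0.596% of all genes with a statistic did.

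**Figure D4:**
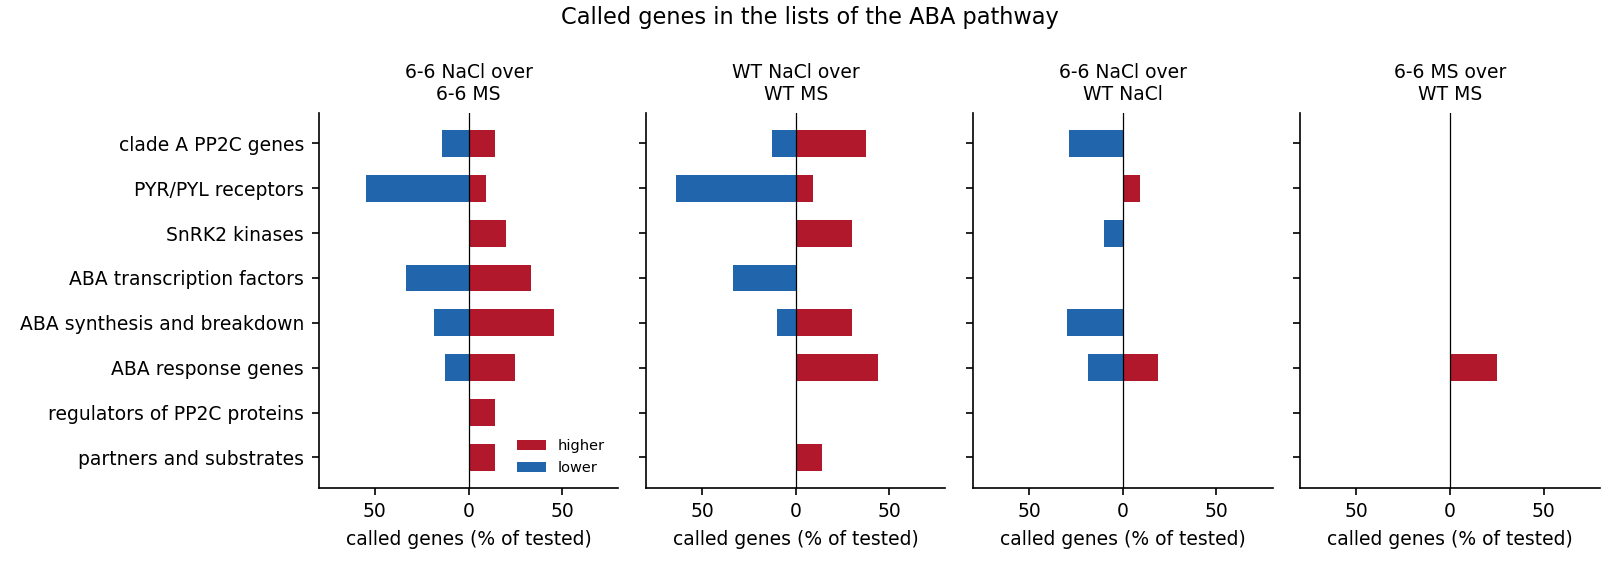
Share of the tested genes of each ABA pathway list that passed the authors' q-value of 0.05, in percent from 0, in the 4 pairs of groups; red bars are genes that were higher and blue bars genes that were lower in the first-named group. In both lines the PYR/PYL receptors have most of their called genes lower on NaCl, 6 of 11 tested in 6-6 and 7 of 11 tested in WT. Of all tested genes, 10.4% were lower on NaCl in 6-6 and 10.5% in WT.

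Outside clade A, 61 genes annotated as protein phosphatase 2C were taken for comparison. On NaCl against MS, 11 of 52 tested rose and 3 fell in 6-6, and 9 of 52 rose and 1 fell in WT, which makes 26.9% called in 6-6 and 19.2% in WT. These shares lie near those of all tested genes, 24.1% in 6-6 and 21.8% in WT. The median log2 ratio was 0.05 in 6-6 and 0.08 in WT. By the statistic 2 of 52 passed in 6-6 and 1 of 52 in WT, where 10.1% and 8.45% of all genes with a statistic did. AT3G16560 rose to 51.8 FPKM on NaCl against 26.8 FPKM on MS in 6-6 and to 61.2 FPKM on NaCl against 29.3 FPKM on MS in WT. Between the lines on NaCl, AT5G01700 was lower in 6-6, at 8.02 FPKM against 11.2 FPKM in WT, and PP2C52 was higher in 6-6, at 13.3 FPKM against 10.2 FPKM in WT, but neither passed by the statistic. The median log2 ratio of the 52 tested genes in that pair was -0.10, beside -0.28 over the 7 tested members of clade A. The called share there was 3.85%, where 6.71% of all tested genes passed. At an unadjusted p below 0.05 in the authors' deposited table there were 10 of 52 between the lines on NaCl, where 18.5% of all tested genes were. On MS none of 51 passed between the lines, where 3.02% of all tested genes did. An unadjusted p below 0.05 was reached there by 1 of 51, and by 13.8% of all tested genes.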

How the data were processed

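RNA of 12 samples, 3 per group, was measured by sequencing. The submitters' processing notes name HISAT2, HTSeq, edgeR and the build TAIR10, without versions, and no source used here gives the role of each. Per the file headers, the 4 deposited tables have the layout of Cuffdiff's gene output. They hold 1 FPKM value per group made by the authors, a test statistic of the authors (a signed score, not finite for some genes with a group at 0), and the deposited p-value and q-value of each gene. The q-values equalled a Benjamini-Hochberg adjustment of the p-values to within 5.29e-07. In 1 table a repeated header line was dropped.

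Log2 ratios were computed from the 2 FPKM values of a table with no pseudocount, and a gene was called at a deposited q-value below 0.05. Tests that need values per sample (a count model and the difference between lines in the salt response) could not be run. Levels over the 4 groups came from the 2 tables of NaCl against MS. Comparisons between lines used their own tables, whose values for the same group differed by a scale factor of 0.979 to 1.02. The statistic read as a normal deviate, a stricter q-value of 0.01, a minimum mean of 1 FPKM, pseudocounts of 1 and 0.1 and centring were tried as alternatives, and the recomputation was tested on simulated data.

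The members and gene lists were chosen with earlier results of these data known. All 9 members were described. Of each list, the genes named came from the 4 with the smallest deposited p-values in a pair of groups, ties going to the larger log2 ratio. Of the other PP2C genes they came from the 4 called ones with the largest log2 ratios, and besides these the 5 genes nearest to HAI1 in pattern were named. RAB18 in 6-6 on NaCl against MS was named after its values were seen. Positions are those of the files with 1 added to the start. All 120 genes of the members and lists matched RefSeq, and upstream sequence was read from the RefSeq genome TAIR10.1, in which the interval that the files give lies within the RefSeq gene for all 9 members. Python 3.11.15, pandas 2.3.3, numpy 2.4.6 and scipy 1.17.1 were used.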

Additional observations from a re-analysis of the deposited data

How the results depend on the processing

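With the authors' statistic read as a normal deviate, the number of members that passed was 1 in place of 2 for 6-6 against WT on NaCl, 2 in place of 4 for NaCl against MS in WT and 1 in place of 2 for NaCl against MS in 6-6. A minimum mean of 1 FPKM left 1 of 2 for 6-6 against WT on NaCl, since HAI3 is below it, and 1 of 2 for NaCl against MS in 6-6, since AHG1 is below it. A q-value below 0.01 left 1 of 2 for NaCl against MS in 6-6. In WT, this q-value and this minimum mean each left 3 of 4, without AHG1. Centring on the median tested gene turned the sign of ABI1 (0.0088, against -0.06) and HAB2 (0.015, against -0.06) for 6-6 against WT on MS, neither of which passed. With log2(FPKM + 1), ratios of the low genes shrank: HAI3 for 6-6 against WT was -0.85 on NaCl (against -1.91) and -0.45 on MS (against -1.45), HAI3 for NaCl against MS in WT was 0.53 (against 1.03), and AHG1 for NaCl against MS was -0.48 in 6-6 (against -1.67) and -0.41 in WT (against -1.52). The difference in salt response of AHG1 was then -0.065, against -0.15. No other sign among the 30 log2 ratios of members changed. The difference in salt response taken from the tables of 6-6 against WT was within 0.0013 of the value given for 8 of 8 members, since the values of a group differ between tables by nearly the same factor for every member. No paired analysis was possible because the tables hold 1 value per group, and for the same reason no sample could be left out.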
